A study of Mus musculus with 24 samples.

Results

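App, Aplp1, Aplp2, Mapt, Psen2, Bace1, Apoe, Clu and Lrp1 are 9 genes of the amyloid and tau pathways, chosen by name from the 48709 genes counted in this study. Their counts were read in 24 RNA-seq libraries, 12 of cerebral cortex and 12 of whole blood, from mouse neonates whose dams had breathed nPM or filtered air. nPM is a nano-sized fraction of urban traffic particulate matter that was collected on filters and made into an aerosol again. Each combination of tissue, sex and exposure held 3 libraries.

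App encodes the amyloid precursor protein, a membrane protein from which the beta-secretase Bace1 and then the gamma-secretase complex, with a presenilin such as Psen2 as its catalytic subunit, cut the amyloid beta peptide. Aplp1 and Aplp2 are its paralogs and are cut by the same kinds of enzymes. Mapt encodes tau, which binds the microtubules of axons, whereas Apoe and Clu are secreted lipid carriers that bind amyloid beta and Lrp1 is an endocytic receptor that takes up Apoe and amyloid beta. In the newborn brain these genes are known for roles in neurite growth, adhesion and lipid transport.

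The exposed dams breathed nPM on 3 days of each week, 5 h a day, from gestational day 2, at a concentration that the labels give as 300 mg/m3 and the study's methods in µg/m3. Control dams received filtered air on the same schedule. The labels give the strain as C57BL/6J and the age of the pups as 3 to 5 days, where the methods give C57BL/6NJ and day 5. The labels name no transgene or deletion in any group. The 3 pups of each sex and exposure were taken from different litters, and whether males and females shared a litter is not stated. Cortex and blood came from the same animals, but the labels do not say which libraries share a pup, so the tissues were compared as separate groups. Total counts on genes ran from 25470666 to 33179851 in control cortex, 22301409 to 33804371 in nPM cortex, 13595647 to 21895536 in control blood and 17482340 to 21432893 in nPM blood. The RNA integrity number (RIN) was 9.4 to 9.9 in cortex and 7.5 to 9.3 in blood. Libraries are named V1 to V24 as in the labels. The cortex was sequenced in lanes 2 and 3 and the blood in lanes 1 and 3.

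Markers of the labelled tissues were present. The summed CPM (counts scaled to a common library total) of 11 neuronal markers was 5512 ± 223 (SD, n = 6) in control cortex, against 3.97 ± 3.77 (SD, n = 5) in control blood. The 7 erythroid markers summed to 762749 ± 19493 CPM in control blood (SD, n = 5) and to 444 ± 174 CPM in control cortex (SD, n = 6).

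In 2 blood libraries the levels stood apart from those of the others. V2, a control female, had 22461 genes with a count, and 50.1% of its counts were on globin genes. The remaining 11 blood libraries had 66.2 to 76.8% on globin. V2 was left out of every blood comparison unless stated. V5, an nPM male, held more counts of App, Aplp1, Mapt, Psen2, Bace1, Apoe and Lrp1 than any of the other 10 blood libraries compared. Several means and fitted values in blood are given with and without V5. For Apoe and Lrp1, the difference within the lane of V5 is given only with it, beside the levels of the other libraries of that lane.

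Positions are those of the authors' gene table on mm10. All 9 are protein coding. App lies on the minus strand at chr16:84954440-85173707, Aplp1 on the minus strand at chr7:30434982-30445535, and Aplp2 on the minus strand at chr9:31149557-31211815. Mapt lies on the plus strand at chr11:104231390-104332090, Psen2 on the minus strand at chr1:180227004-180263438 and Bace1 on the plus strand at chr9:45838580-45864399. Apoe (minus strand, chr7:19696109-19699188), Clu (plus strand, chr14:65968483-65981548) and Lrp1 (minus strand, chr10:127538161-127621148) complete the list. Bace1 overlaps Rnf214 and the antisense gene Gm16536 on the other strand, which held up to 2157 and 241 counts in a cortex library. The sources used here do not state whether counting used strand, so reads of Bace1 and of these overlapping genes cannot be told apart with certainty. Psen2 and Lrp1 overlap antisense genes of at most 12 and 2 counts in any library.

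App and its paralogs Aplp1 and Aplp2 are the members related by descent, and the 250 bases before the start of each are shown to compare their promoters. The sequences are from RefSeq on GRCm38.p6, read 5′ to 3′ on the minus strand. They lie at chr16:85173708-85173957 for App, chr7:30445583-30445832 for Aplp1 and chr9:31211849-31212098 for Aplp2, and capitals mark the GC box GGGCGG or its complement CCGCCC.
App: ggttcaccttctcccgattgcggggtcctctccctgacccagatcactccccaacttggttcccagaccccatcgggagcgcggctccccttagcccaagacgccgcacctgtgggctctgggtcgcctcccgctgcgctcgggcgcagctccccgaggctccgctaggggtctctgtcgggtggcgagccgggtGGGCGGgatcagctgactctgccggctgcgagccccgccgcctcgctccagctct
Aplp1: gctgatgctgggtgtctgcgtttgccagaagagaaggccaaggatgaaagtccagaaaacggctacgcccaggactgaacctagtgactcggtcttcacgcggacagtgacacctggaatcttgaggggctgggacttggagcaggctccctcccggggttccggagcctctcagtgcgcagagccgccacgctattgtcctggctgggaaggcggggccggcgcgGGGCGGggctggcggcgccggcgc
Aplp2: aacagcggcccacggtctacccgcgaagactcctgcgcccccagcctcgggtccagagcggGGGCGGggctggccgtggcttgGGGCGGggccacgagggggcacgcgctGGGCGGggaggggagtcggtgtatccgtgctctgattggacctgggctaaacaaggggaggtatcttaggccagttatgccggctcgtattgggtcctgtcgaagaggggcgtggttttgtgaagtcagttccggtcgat
Positions are counted from the RefSeq start. It coincides with the start in the authors' gene table for App, but lies 47 bases upstream of it for Aplp1 and 33 for Aplp2. The GC box occurred once before App, with its first base 55 bases before the start, and once before Aplp1, 24 bases before it. It occurred 3 times before Aplp2, at 189, 167 and 140 bases before the start. Of 32851 promoter windows of 250 bases in the same table, 32.7% held at least 1 GC box on either strand. The GC content of the windows was 70.8% for App, 66.0% for Aplp1 and 66.4% for Aplp2, against a median of 52.4% over all windows. CpG dinucleotides numbered 23, 20 and 22, where the median window held 6. These matches describe the letters of the window, and no binding was measured. In the promoter table, 6 of the 9 members were matched.

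Levels are compared between the genes per kilobase of gene length, as plain CPM. Apoe was at 290 ± 27.3 CPM per kb (SD, n = 12 here and for the other cortex levels) and App at 272 ± 13.2. Of the cortex genes tested, 99.6% were below Apoe and 99.5% below App. The ranges of these 2 genes over the libraries overlapped.

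Mapt, at 155 ± 21 CPM per kb, and Aplp1, at 153 ± 4.94, came next in cortex, and their ranges overlapped as well. Aplp2 was at 95.5 ± 4.08 and Clu at 57.3 ± 6.85, and neither overlapped with a neighbour in the order. Lrp1 was at 22.7 ± 1.82 and Bace1 at 17.8 ± 0.734, and the lowest Lrp1 library lay just under the highest Bace1 library. Psen2 was the lowest member at 3.70 ± 0.303, with 53.9% of the tested cortex genes below it.

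In blood the order differed. Clu was highest at 10.7 ± 2.97 CPM per kb (SD, n = 11 here and for the other blood levels), above every library of any other member. Aplp2 was at 2.84 ± 0.822, Apoe at 2.19 ± 1.61, App at 0.771 ± 0.940 and Lrp1 at 0.419 ± 0.219. The ranges of each of these and its neighbour overlapped. Psen2, Aplp1, Mapt and Bace1 followed at means of 0.174, 0.167, 0.109 and 0.0349 CPM per kb. V5 alone raised several of these means. Without it (n = 10) App was at 0.505 ± 0.344, Aplp1 at 0.0817 ± 0.0831 and Mapt at 0.0667 ± 0.0785 CPM per kb, each a change of the mean by more than 1.5 times, and Psen2 was at 0.157 ± 0.0575. Aplp1, Mapt and Bace1 had a count of 0 in some blood libraries, and 3 counts, the limit that a count of 0 allows, correspond to at most 0.221 CPM in a blood library, which covers counting error only. In such bulk samples, fewer cells of a type and less RNA per cell cannot be told apart.

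**Figure D1:**
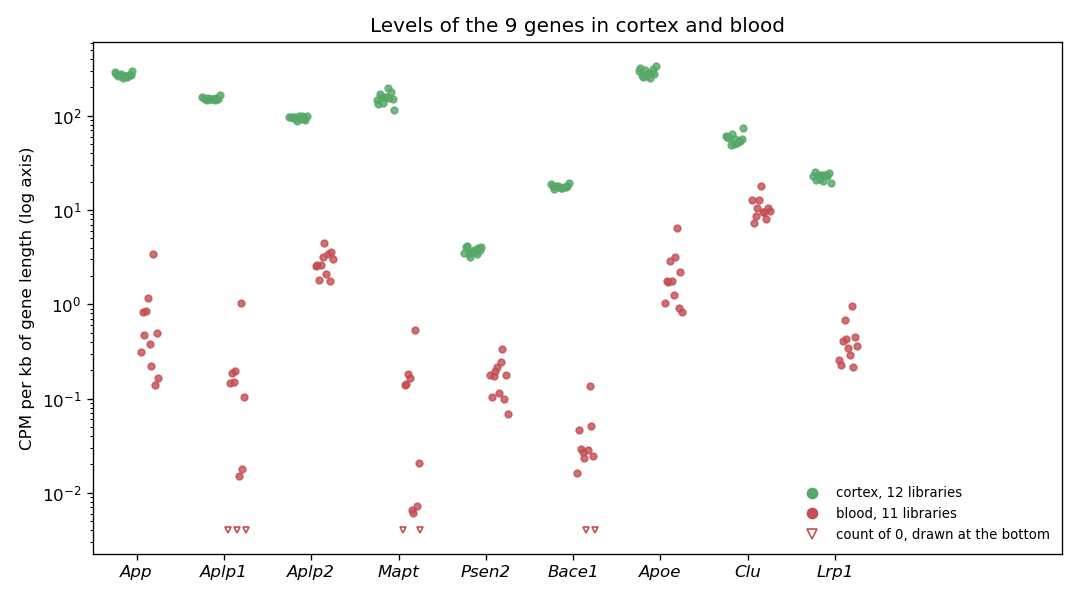
Level of each gene in every library, in CPM per kilobase of gene length on a log axis, for 12 cortex (green) and 11 blood (red) libraries; open triangles at the bottom are counts of 0. The cortex points of a gene lie above its blood points for all 9 genes on this scale, and Clu shows the smallest gap.

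The comparison of control cortex with control blood depended on how the tissues were scaled. With TMM factors (the trimmed mean of M-values, a scaling that centres most genes between libraries), the median log2 difference of all 10275 genes tested was 0.24, and without these factors it was 4.66. At adjusted p under 0.05 (edgeR), 86.2% of all genes were called. Among the members, 6 of 9 had counts in every library and were tested, and all 6 were called.

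App was 4.88 higher in cortex on the log2 scale (SE 0.40, adjusted p = 5.32e-09), Apoe 3.31 higher (SE 0.20), Lrp1 2.14 higher (SE 0.15) and Aplp2 1.09 higher (SE 0.15). Psen2 was 0.49 higher (SE 0.20, adjusted p = 0.0331), and this call was lost with RLE factors (0.25), with a filter of at least 1 count in any library (0.40) and without V10 (0.47), V17 (0.42), V24 (0.46), V6 (0.39) or V8 (0.28). Clu was the exception at -1.53 (SE 0.13, adjusted p = 1.46e-08). Without TMM factors the difference for Clu was 2.94, so its direction turns with the scaling. Against the median of all genes, Clu was lower in cortex under both scalings, and App, Apoe, Lrp1, Aplp2 and Psen2 were higher under both. Dropping the factors moves all genes nearly alike, so this agreement is no second test.

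The comparison of nPM with filtered air in cortex asked whether prenatal exposure moved these genes in the neonatal brain. In both sexes together, 0 of 9 members were called at adjusted p under 0.05, where 0.0144% of 20857 genes were called, and 0 of 9 at unadjusted p under 0.005, where 0.614% were. No member passed an unadjusted p under 0.05 in edgeR, which 5.67% of all genes did. None was called by limma voom or DESeq2, which called 3 and 22 of all genes at adjusted p under 0.05. The groups did not overlap for 0 of 9 members and for 0.197% of all genes. Fitted log2 fold changes of the members ran from -0.07 to 0.05 with a median of -0.0016, and the median of all genes was -0.0024.

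App, the precursor, had a TMM-scaled level of 816 to 911 CPM in the nPM cortex libraries with a median of 840, and of 814 to 961 with a median of 831 in controls. The ranges overlapped almost wholly, and the highest value belonged to the control male V24. The fitted log2 fold change was 0.0024 (SE 0.051), with a 95% interval of -0.11 to 0.11.

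Aplp1 ranged from 449 to 471 CPM with nPM and from 447 to 512 in controls, and its fold change had an interval of -0.10 to 0.08. Aplp2 ranged from 331 to 362 CPM with nPM and from 331 to 379 in controls, with an interval of -0.10 to 0.09. Both paralogs therefore varied little among the libraries, and their nPM ranges lay almost wholly inside the control ranges. The coefficient of variation of Aplp1 over 12 libraries, 3.78%, was the lowest of the 9.

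Bace1, the beta-secretase, lay at 107 to 119 CPM with nPM and at 109 to 126 in controls (log2 fold change -0.02, SE 0.044). Psen2, the presenilin, lay at 13.8 to 18.03 CPM with nPM and at 14.9 to 17.8 in controls (-0.0016, SE 0.076). The groups overlapped for both enzymes.

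Mapt, which encodes tau, ran from 1026 to 1331 CPM with nPM, with a median of 1154, and from 898 to 1470 in controls, with a median of 1185. The lowest and the highest library were both control males, V24 and V16, and the nPM libraries lay between them. The log2 fold change was 0.05 (SE 0.091), with a 95% interval of -0.15 to 0.24. Its coefficient of variation was 13.6%, the highest of the 9.

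Apoe, the main lipid carrier of the brain, ran from 579 to 662 CPM with nPM, with a median of 621, and from 540 to 745 in controls, with a median of 601. Clu, the other carrier, ran from 184 to 219 CPM with nPM and from 169 to 260 in controls. For both, the control libraries spread more widely than the nPM libraries and enclosed them.

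Lrp1, the receptor, had the largest fitted change of the 9 in cortex. It ran from 357 to 433 CPM with nPM, with a median of 391, and from 351 to 437 in controls, with a median of 420. Most nPM libraries lay under most control libraries, but the lowest value was the control male V24. The log2 fold change was -0.07 (SE 0.059, interval -0.20 to 0.06), with edgeR's unadjusted p = 0.251 and an exact permutation p = 0.275 (two-sided, smallest possible 0.00216).

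**Figure D2:**
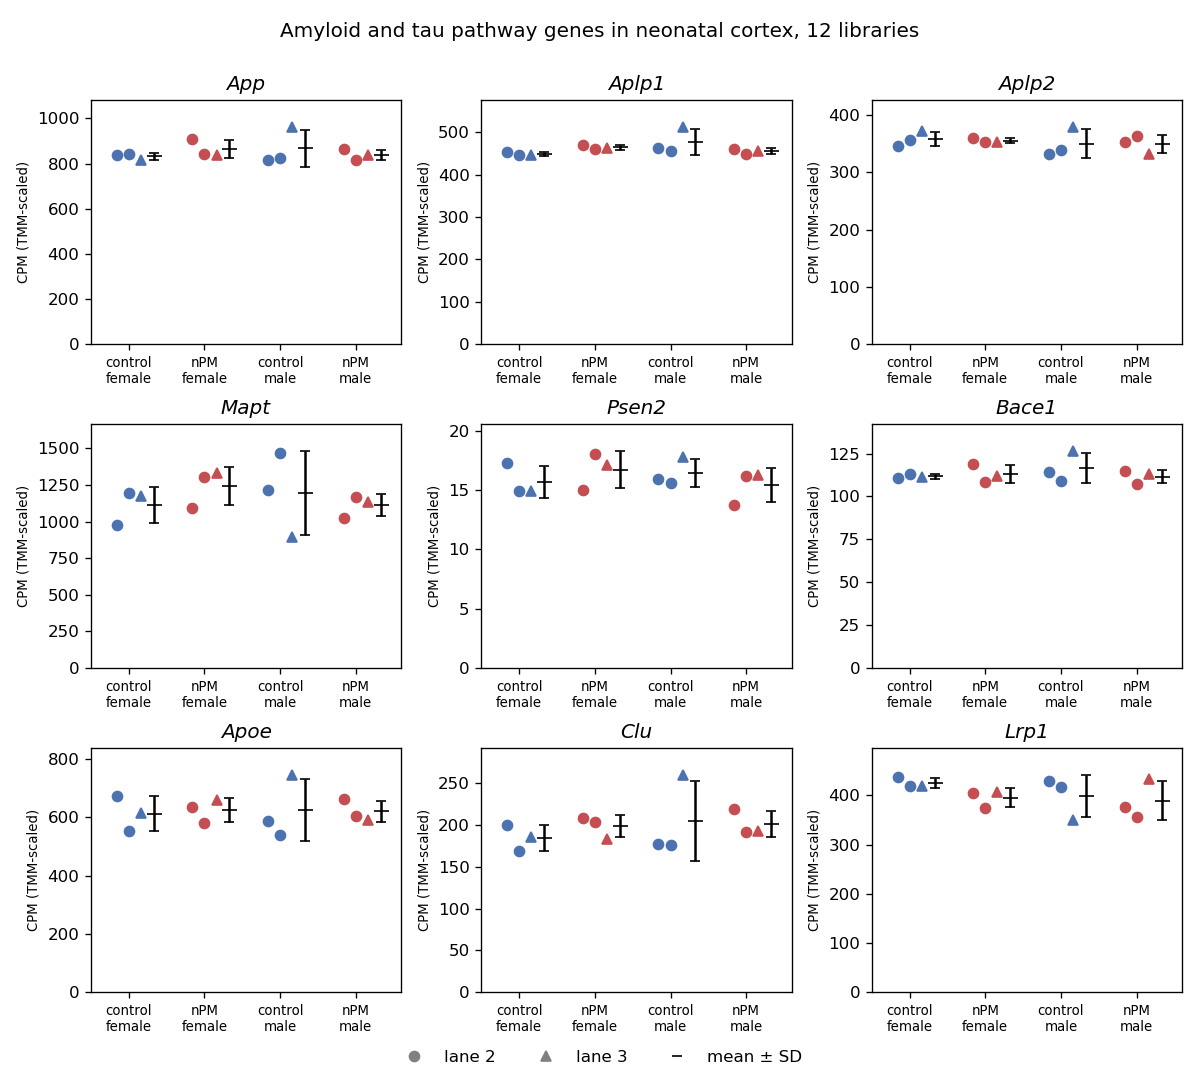
TMM-scaled CPM of the 9 genes in 12 cortex libraries, by exposure and sex, with lane as the symbol and mean ± SD of 3 libraries beside each group. The groups overlap for each gene when the sexes are joined, and the control male V24 (triangle) is the highest App, Aplp1, Aplp2, Bace1, Apoe and Clu value and the lowest Mapt and Lrp1 value.

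V24 was also at one end of the cell type markers. Among the cortex libraries it had the highest summed CPM of microglial (309), astrocyte (3080), oligodendrocyte lineage (729) and neuronal markers (5783) and the lowest of radial glia markers (349). The part of V24's makeup in the members' levels was not tested.

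The difference of nPM from control in cortex changed with the lane of sequencing. In lane 2, with 4 libraries per exposure, the mean log2 difference of nPM from control was 0.19 for Clu, -0.17 for Lrp1 and -0.07 for Mapt. In lane 3, with 2 per exposure, V24 among them, it was -0.22 for Clu, 0.13 for Lrp1 and 0.26 for Mapt. The lanes gave opposite directions for all 9 members, App (0.05 and -0.08), Aplp2 (0.06 and -0.14) and Apoe (0.08 and -0.11) among them, and no direction is read from the pooled values. The share of all genes with opposite directions was not counted, so this is not read as particular to the members.

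In female cortex, 241 of 21731 genes (1.11%) were called at adjusted p under 0.05 and 4.02% at unadjusted p under 0.005. None of the 9 members was called by either rule, or at unadjusted p under 0.05, which 15.4% of all genes passed. Aplp1 was at 471, 460 and 463 CPM in the 3 nPM females and at 455, 447 and 447 in the 3 control females. The nPM values were all higher, by a small step (log2 fold change 0.05, SE 0.049). Lrp1 was at 405, 374 and 408 CPM with nPM and at 437, 420 and 420 in controls. Here the nPM values were all lower (log2 fold change -0.09, SE 0.050, edgeR adjusted p = 0.407). These 2 of 9 members were the ones without overlap, and 21.1% of all genes had no overlap in female cortex. With 3 libraries against 3 an exact permutation test cannot go below 0.1.

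In male cortex, 0 of 9 members and 0.318% of 21670 genes were called at unadjusted p under 0.005, and no member's groups were without overlap, where 9.2% of all genes had none. The test of the difference between the sexes, the nPM-by-sex interaction, called 0 of 9 members at unadjusted p under 0.005, where 1.35% of all genes passed. Adjusted p-values of the members ran from 0.637 to 0.988. Fitted interaction terms were below 0 for 7 of the 9, with a median of -0.13, and the exceptions were Aplp2 (0.0058) and Lrp1 (0.07). Over all genes 50.3% were below 0 and the median was -0.0019. The members did not differ between male and female cortex either, as far as the test could show: 0 of 9 passed an unadjusted p of 0.005, which 0.518% of all genes did.

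**Figure D3:**
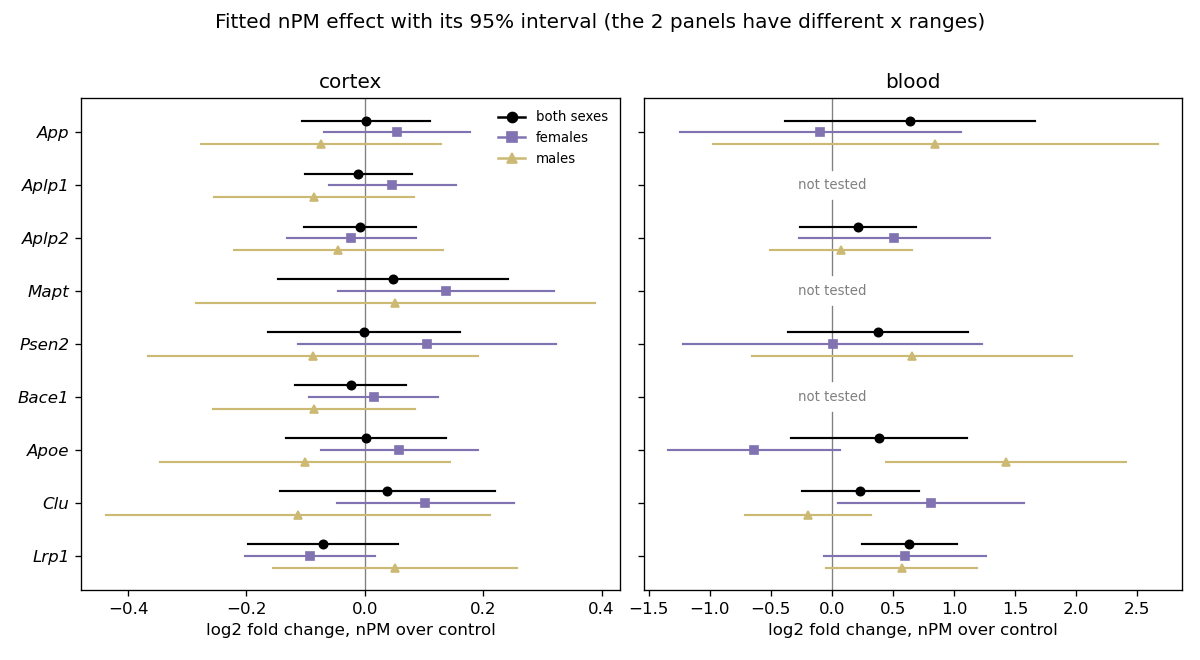
Fitted log2 fold change of nPM over control with its 95% interval (edgeR) for each gene in cortex (left) and blood (right), for both sexes together and for each sex. The 2 panels have different x ranges; all cortex intervals include 0, and in blood the intervals of Lrp1 for the sexes joined, Clu in females and Apoe in males do not.

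In blood, Aplp1, Mapt and Bace1 had libraries without a count, and the other 6 members were tested. Of 9977 genes, 0% (0 genes) were called at adjusted p under 0.05 by edgeR or limma voom and 1 by DESeq2, and 310 had an unadjusted p under 0.05. At unadjusted p under 0.005, 0.17% of all genes and 1 of 6 members, Lrp1, passed. All 6 members had fitted log2 fold changes above 0, from 0.21 to 0.64 with a median of 0.38, and the median of all genes was 0.0030. For 3 of the 6 the lanes differed in sign, and the share of all genes that did so was not counted. In lane 1 and lane 3 the mean log2 difference was 1.34 and -0.53 for App, 0.50 and -0.39 for Aplp2, and 0.35 and -0.04 for Clu. It was above 0 in both lanes for Psen2, Apoe and Lrp1. For Apoe in lane 1 this rested on V5, at 11.9 CPM. The other nPM libraries of lane 1, at 2.17 to 4.75 CPM, lay within its controls, at 1.89 to 5.37. With V2 kept, the fitted value was -0.41 for App and -0.08 for Apoe.

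Lrp1 was at 4.49, 6.16, 8.22, 8.18, 10.7 and 14.6 CPM in the nPM blood libraries and at 4.05, 4.67, 5.02, 6.76 and 6.89 in the 5 controls. The 4 highest nPM libraries lay above all controls, and the lowest nPM library lay among the lowest controls. The log2 fold change was 0.63 (SE 0.19, interval 0.25 to 1.02), with an unadjusted p = 0.0029 and an adjusted p = 1.0 in edgeR, and the exact permutation p on the scaled levels was 0.0714 (two-sided). Without V5, the highest library, it was 0.50 (unadjusted p = 0.0157 in edgeR). The unadjusted p was also above 0.005 without V17 (0.61), V18 (0.60), V1 (0.61), V22 (0.65), V6 (0.61) or V8 (0.63), where the log2 fold change stands in parentheses. The mean log2 difference was 0.52 within lane 1 and 0.68 within lane 3. The lane 1 value includes V5, at 14.6 CPM. The other nPM libraries of lane 1 were at 4.49 to 8.18 CPM and its controls at 4.05 to 6.76, with overlap. With V2 kept among the controls the fitted value was -0.05, so the direction rested on leaving V2 out.

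App, at 0.959 to 9.27 CPM with nPM and 0.537 to 3.31 in controls, had the widest interval of the 6 (-0.39 to 1.67) around a log2 fold change of 0.64. Without V5 it was -0.03. Clu, which is also stored in platelets, was at 28.4 to 61.5 CPM with nPM and at 25.4 to 40.1 in controls (log2 fold change 0.23, SE 0.23). The 6 platelet markers, of which Pf4 is one, summed to 336 ± 121 CPM with nPM (SD, n = 6) and to 247 ± 66.2 in controls (SD, n = 5). All 6 were above 0 in the fit and 0 were called. Across the 11 blood libraries the log2 level of Clu rose with the summed level of these markers, both TMM-scaled, at r = 0.958 (permutation p = 4e-05, adjusted p = 0.00156 over 78 relations) and rho = 0.936 (permutation p = 0.0001, adjusted p = 0.00585). It was 0.866 without V3 and V4, 0.983 within the 7 libraries of lane 1 and 0.950 on plain CPM. Clu also rose with endothelium markers, at r = 0.860 (permutation p = 0.00042, adjusted p = 0.0109; rho = 0.836, permutation p = 0.00212, adjusted p = 0.0413) and 0.794 without V3 and V5. With astrocyte markers it was lower by rank (rho = -0.818, permutation p = 0.0031, adjusted p = 0.0484; r = -0.669, permutation p = 0.0479, adjusted p = 0.187), and r was -0.288 on plain CPM. With erythroid markers the sign turned with the scale, from 0.0716 on scaled levels to -0.839 on plain CPM. Of the 5 endothelium markers, 2 had counts in each of the 11 libraries. Whether their relation to Clu is apart from that of the platelet markers was not tested.

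**Figure D4:**
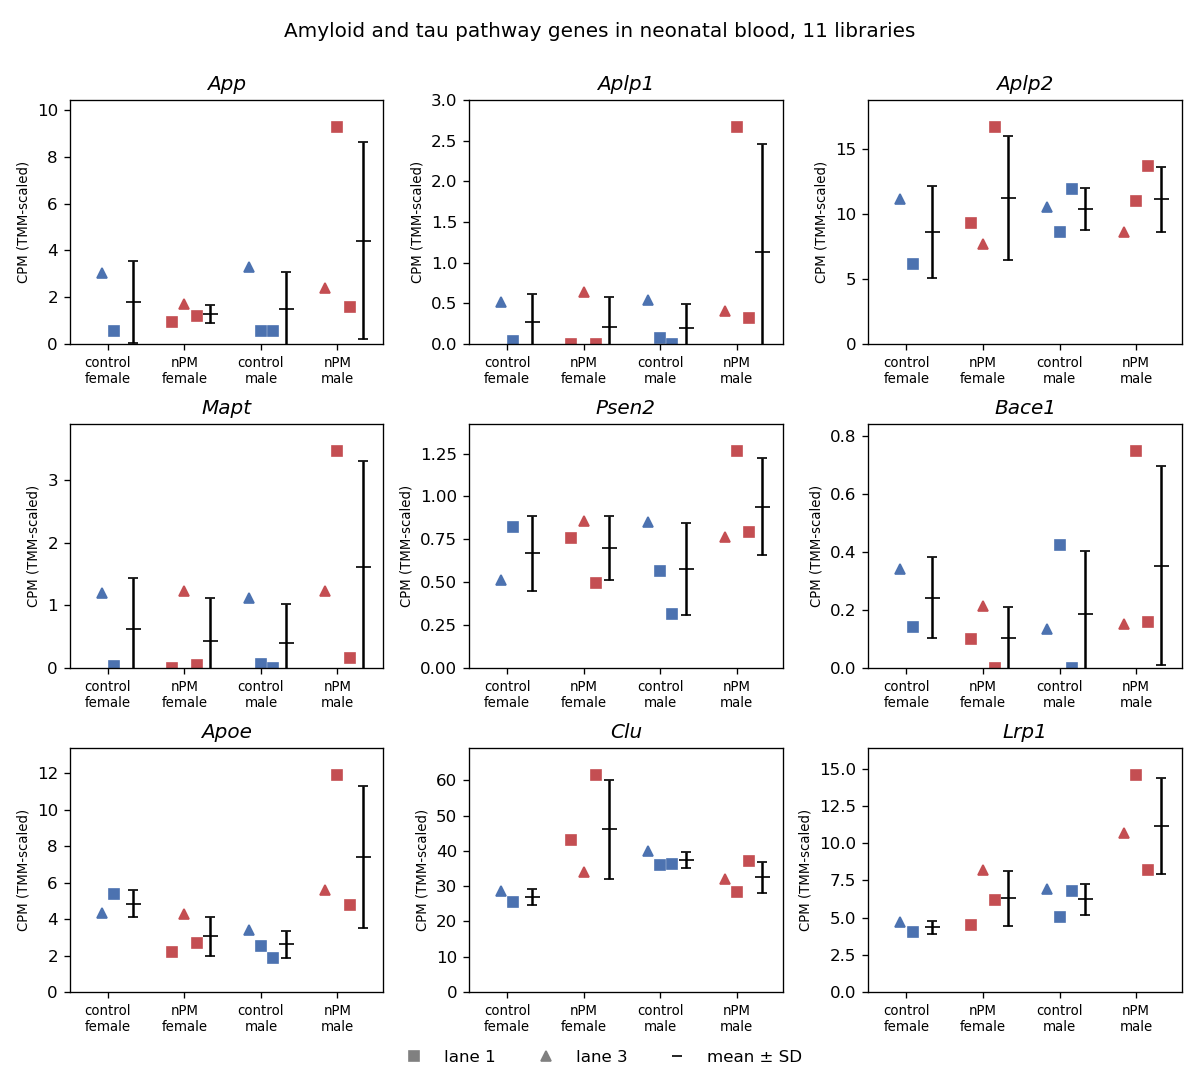
TMM-scaled CPM of the 9 genes in 11 blood libraries (without V2), by exposure and sex, with lane as the symbol and mean ± SD beside each group; bars that reach below 0 end at the axis. V5, the square at the top of the nPM males, is the highest library for App, Aplp1, Mapt, Psen2, Bace1, Apoe and Lrp1, and Mapt in lane 3 (triangles) lies at 1.12 to 1.23 CPM in each group.

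Apoe showed the clearest split between the sexes in blood. In females it was at 2.17, 2.71 and 4.27 CPM with nPM and at 4.33 and 5.37 in controls. In males it was at 4.75, 5.57 and 11.9 CPM with nPM and at 1.89, 2.55 and 3.40 in controls. The nPM values were thus all lower in females and all higher in males, although the step in females between the nearest libraries was small. The fitted log2 fold change was -0.64 in females (SE 0.33, unadjusted p = 0.0717 in edgeR) and 1.43 in males (SE 0.45, unadjusted p = 0.0080, adjusted p = 1.0). The male value was 0.89 without V5, 1.00 without V8, 1.91 without V7 (unadjusted p = 0.00118) and 1.47 without V21 (unadjusted p = 0.00458), and with at least 1 count in any library it was 1.39 (adjusted p = 0.0145).

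The interaction term of Apoe was 2.02 on the log2 scale (SE 0.53, interval 0.92 to 3.12), with an unadjusted p = 0.00107 and an adjusted p = 0.452 in edgeR. Apoe was the 1 member of 6 under 0.005, and 0.902% of all genes were. Leaving out V5 gave 1.501 (edgeR's unadjusted p = 0.00443) and leaving out V8 gave 1.77 (edgeR's unadjusted p = 0.00586). The call did not pass adjustment over all genes, except with a filter of at least 1 count in any library (2.02, adjusted p = 0.00415 in edgeR).

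Across the 11 blood libraries Apoe rose by rank with 6 radial glia markers, of which Vim, a gene of many cell types, was the most abundant (rho = 0.873, permutation p = 0.00081, adjusted p = 0.0211 over 78 relations; r = 0.754, permutation p = 0.00885, adjusted p = 0.0978). The r was 0.921 without V3 and V21 and 0.779 within lane 1. With astrocyte markers r was 0.809 (permutation p = 0.00652, adjusted p = 0.0848; rho = 0.691, permutation p = 0.0221, adjusted p = 0.215), and 0.557 without V3 and V5. The part of these markers in the split of Apoe by sex was not tested.

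Clu went the other way between the sexes. In females it was at 33.9, 43.2 and 61.5 CPM with nPM and at 25.4 and 28.6 in controls, and in males at 28.4, 32.1 and 37.1 with nPM and at 35.9, 36.2 and 40.1 in controls. The female groups did not overlap and the male groups did. The platelet markers were at 230, 338 and 565 summed CPM in the nPM females and at 192 and 207 in the control females, so they did not overlap either. In males they were at 242, 303 and 338 with nPM and at 202, 296 and 339 in controls, with overlap. The interaction term was -1.03 (SE 0.39), with an unadjusted p = 0.0173 and an adjusted p = 0.452 in edgeR. The female log2 fold change was 0.81 (SE 0.36, unadjusted p = 0.0376) and the male one -0.19 (SE 0.24). Without V18 the female value of Clu was 1.10 (adjusted p = 0.0344 in edgeR). That smaller fit called 570 genes at adjusted p under 0.05, against 2 with V18 kept. Without V3 the female value was 0.44 (unadjusted p = 0.252 in edgeR).

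In female blood, with 3 nPM and 2 control libraries, Apoe and Clu were the 2 members of 6 without overlap, and 19.3% of all genes had none. At unadjusted p under 0.005, 0 of 6 members and 0.745% of genes (82) passed, and 762 genes did without V18. In male blood Apoe and Lrp1 were without overlap, as were 11% of all genes, and 0 of 6 members and 0.33% of genes passed 0.005. Lrp1 in males had a log2 fold change of 0.57 (SE 0.29, unadjusted p = 0.0665 in edgeR).

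Between male and female blood, Lrp1 was 1.05 higher in males on the log2 scale (SE 0.24, unadjusted p = 0.000297, adjusted p = 0.593 in edgeR), the 1 member of 6 under 0.005, where 0.351% of all genes were. The level of Lrp1 was 8.68 ± 3.44 CPM in males (SD, n = 6) and 5.52 ± 1.71 in females (SD, n = 5), with an exact permutation p = 0.0844 (two-sided). For App the fitted difference was 1.95 (SE 0.65, edgeR's unadjusted p = 0.00718), and 1.09 without V5. Its level was 2.95 ± 3.28 CPM in males (SD, n = 6) and 1.48 ± 0.957 in females (SD, n = 5), with an exact permutation p = 0.452 (two-sided). The male V5 was at 9.27 CPM, the other males at 0.550 to 3.31 and the females at 0.537 to 3.02. Without V1, the p of Lrp1 was 0.0174 (log2 difference 1.14). With the female V2 kept, which held Lrp1 at 27.7 and App at 14.5 CPM, above every male library, the fitted differences were 0.21 (unadjusted p = 0.735 in edgeR) and 0.40 (unadjusted p = 0.724), so the Lrp1 call rested on leaving V2 out. RIN went partly with sex here, at 7.5, 7.6, 7.6 and 8.2 in females and 9 in the female V1, and at 8.3 to 9.3 in males. Without the RIN term, App was at 0.96 (unadjusted p = 0.0837 in edgeR). Neither passed adjustment over all genes with the filter used here. Both did with at least 1 count in any library (adjusted p = 0.0224 for Lrp1 and 1.42e-05 for App in edgeR), but the male and female libraries overlapped for both.

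Mapt and Aplp1, known mainly from neurons, had few counts in blood, and these counts divided most of the libraries by lane. The 4 libraries of lane 3, V17, V18, V21 and V22, had 21, 23, 24 and 25 Mapt counts and 8 to 12 Aplp1 counts. In lane 1, V5 had 74 Mapt and 57 Aplp1 counts, and the other 6 libraries compared had 0 to 3 Mapt and 0 to 6 Aplp1 counts. V2, also of lane 1 but left out of the comparisons, had 41 Mapt and 29 Aplp1 counts. Lane 3 held both nPM and control libraries of each sex, so the split did not follow exposure.

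Neuronal markers moved with these counts. The 11 neuronal markers summed to 7.04 to 8.84 CPM in lane 3, with none at 0, and to 1.03 to 3.10 CPM in lane 1 without V5, with 4 to 9 of 11 at 0. V5 had 29.2 CPM of neuronal markers (1 of 11 at 0, the most abundant Syt1 at 4.93 CPM) and 40.6 CPM of 8 astrocyte markers (none at 0, the most abundant Slc1a2 at 14.1 CPM). Astrocyte and oligodendrocyte lineage markers did not divide by lane. The former summed to 9.00 to 11.2 CPM in lane 3 and to 4.68 to 12.6 in lane 1 without V5, and the latter to 6.63 to 14.8 and to 8.02 to 17.9. Among the members tested in blood, App went with the neuronal markers as well. Its r was 0.948 over 11 libraries (permutation p = 3e-05, adjusted p = 0.00156 over 78 relations; rho = 0.927, permutation p = 0.00015, adjusted p = 0.00585), 0.969 without V5 and V18 and 0.984 within lane 1. Aplp2 was lower where T and NK cell markers were higher (r = -0.873, permutation p = 0.00081, adjusted p = 0.0158; rho = -0.718, permutation p = 0.016, adjusted p = 0.178), but at -0.569 without V3 and V4 and -0.417 on plain CPM. Lrp1 had r = 0.702 with neuronal markers (permutation p = 0.0153, adjusted p = 0.0978), 0.405 without V5 and V18 and 0.895 within lane 1. The lane 1 values of App and Lrp1 include V5, and those without V5 and V18 span both lanes, between which the neuronal markers differed. No correlation was taken for lane 1 without V5. The part of the neuronal markers in the Lrp1 difference was not tested. Of the 78 relations in blood, 4 had an adjusted p under 0.05 by Pearson's r and 5 by Spearman's rho.

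Lane 3 also carried 4 cortex libraries, in which Aplp1 had 0.422 counts for each Mapt count. The ratio in the lane 3 blood libraries was 0.441 (41 and 93 counts), and in V5 it was 0.770. In the other 6 libraries compared in lane 1 it was 1.33, from only 8 and 6 counts. The lane 3 blood counts amounted to 0.0721% of the lane 3 cortex counts for Mapt and 0.0754% for Aplp1. The source of these reads was not tested.

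Across the 12 cortex libraries the largest relation of a member to a cell type list was that of Mapt with the summed level of the 7 microglial markers. The correlation of the log2 levels was r = -0.963 (permutation p = 1e-05, the smallest that 100000 permutations can give, adjusted p = 0.000585 over 117 relations). Spearman's rho was -0.888 (permutation p = 0.00026, adjusted p = 0.0152). Without V16 and V24, the libraries farthest from the median of the marker sum, r was -0.929, and within the 8 libraries of lane 2 it was -0.972. Lane 3 held 4 libraries, too few for its own value.

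Mapt was also lower where astrocyte (r = -0.924), monocyte (r = -0.917) and oligodendrocyte lineage markers (r = -0.902) were higher, each with an adjusted permutation p = 0.000585. Without the 2 libraries farthest from the median these were -0.976, -0.944 and -0.784. With neuronal markers its r was 0.133 (permutation p = 0.68), 0.553 without V10 and V24 and 0.756 within lane 2. The monocyte and microglial lists both hold Csf1r, so their relations to Mapt are not independent. All lists share the same libraries and their totals, and what moves them together was not tested.

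Clu rose with microglial markers at r = 0.828 (permutation p = 0.00133, adjusted p = 0.0311; rho = 0.601, permutation p = 0.044, adjusted p = 0.266), and at 0.586 without V16 and V24. With monocyte markers it was 0.786 (permutation p = 0.00175, adjusted p = 0.0341; rho = 0.678, permutation p = 0.0185, adjusted p = 0.235), and 0.589 without V14 and V24. The relations of Clu therefore rest in part on the most extreme libraries, and Csf1r is in both of these marker lists. Of the 117 relations, 6 had an adjusted p under 0.05 by Pearson's r.

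**Figure D5:**
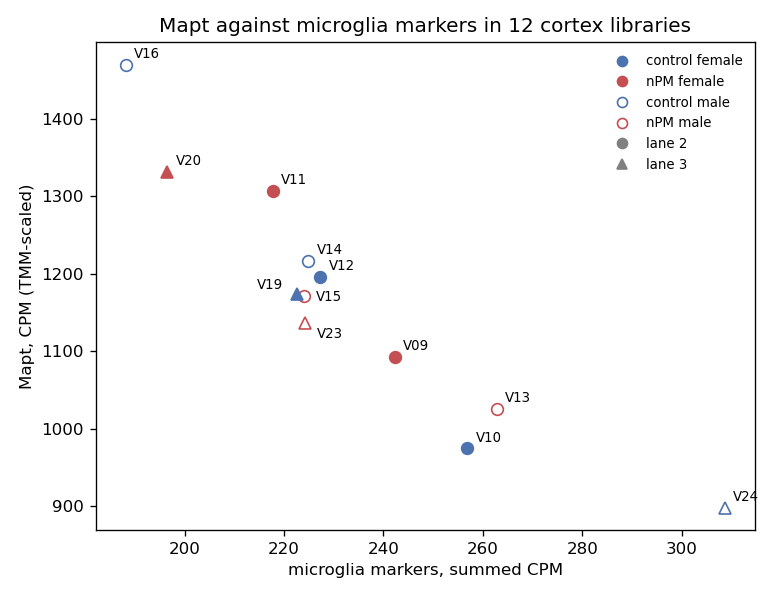
TMM-scaled CPM of Mapt against the summed CPM of 7 microglial markers in each of 12 cortex libraries, coloured by exposure, with open symbols for males and lane as the symbol. Points run from V16 at 188 summed CPM and 1470 CPM of Mapt to V24 at 309 and 898, and nPM and control libraries are mixed along the line.

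Among the members themselves, 9 of 36 pairs had an adjusted permutation p under 0.05 by Pearson's r over 12 cortex libraries and none by Spearman's rho. App with Bace1 had r = 0.893 and App with Aplp1 r = 0.889, but these were 0.378 and 0.380 without the 2 libraries farthest from the median. Within the 8 libraries of lane 2, which hold V09 but not V24, these correlations were 0.758 and 0.653. The relations therefore rest in part on V09 and V24. Apoe with Clu had r = 0.806 (0.554 without 2 libraries) and Mapt with Apoe r = -0.784 (-0.499). Within lane 2 these were 0.795 and -0.917.

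The genes whose cortical pattern was most like a member's were found among 10268 genes with at least 10 CPM, by Pearson's r over the 12 libraries. Tubb2b, a beta-tubulin, and Neo1, a netrin receptor, were among the 3 most like Mapt, at r = 0.976 and 0.975. Syp, a synaptic vesicle protein, was most like Bace1 (0.953), Uqcr11, of mitochondrial complex III, most like Aplp1 (0.944), and Nat8l, which makes N-acetylaspartate, most like App (0.918). Il6st was most like Aplp2 (0.862), Car2 most like Apoe (0.920), Cpe most like Clu (0.951), Nav2 most like Lrp1 (0.962) and Mapk1ip1 most like Psen2 (0.877). The share of genes with r over 0.8 was 2.63% for Mapt and 0.0487% for Psen2.

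The other genes of the pathway were counted in 6 lists of 61 genes in all, covering secretases, adaptors and sorting receptors of App, amyloid-degrading peptidases, tau kinases and phosphatases, structural microtubule-associated proteins, and lipoprotein receptors with lipid export. In cortex of both sexes, 0 of 61 were called at adjusted p under 0.05, where 0.0144% of all genes were. At unadjusted p under 0.005, 1 passed, where 0.614% of all genes did. Fold changes were above 0 for 25 and below 0 for 36, and 51.1% of all genes were below 0.

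Sorl1, a sorting receptor that retains App in the recycling pathway, was that gene. It was at 146 ± 16.4 CPM with nPM (SD, n = 6, 125 to 164) and at 172 ± 11.1 in control cortex (SD, n = 6, 151 to 182). The nPM libraries lay lower with some overlap, and the log2 fold change was -0.25 (SE 0.068, unadjusted p = 0.00234, adjusted p = 0.643 in edgeR). The unadjusted p rose above 0.005 without V11 (-0.20), V12 (-0.24), V14 (-0.24), V15 (-0.21), V19 (-0.22) or V20 (-0.22). In females it was -0.33 (unadjusted p = 0.000759, adjusted p = 0.0561), with adjusted p = 0.00536 by DESeq2, 0.0340 without RIN and 0.00639 without V09. Sorl1 was the 1 of 61 at unadjusted p under 0.005 in female cortex, where 4.02% of all genes were. At adjusted p under 0.05, the fit without V09 called 383 genes, against 241 with every female library. The interaction of Sorl1 with sex was 0.15 (unadjusted p = 0.283 in edgeR), so a difference between the sexes was not shown.

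By list, the numbers above and below 0 in cortex of both sexes were 4 and 5 of 9 secretases, 3 and 9 of 12 adaptors and sorting receptors, and 0 and 4 of 4 peptidases. Among the tau kinases and phosphatases they were 8 and 7 of 15, among the microtubule-associated proteins 4 and 4 of 8, and among the lipoprotein receptors and lipid export genes 6 and 7 of 13. The medians ran from -0.05 for the peptidases to 0.0057 for the tau kinases and phosphatases. Sorcs1, a relative of Sorl1, was at -0.17 (unadjusted p = 0.0179), Mark2, a tau kinase, at -0.09 (unadjusted p = 0.0430), and Lrp4, a relative of Lrp1, at -0.14 (unadjusted p = 0.0465), none past 0.005.

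The remaining genes with the smallest p of their lists had unadjusted p-values of 0.0697 to 0.517. They were Aph1b (0.09) and Aph1c (-0.18), both subunits of gamma-secretase, Ece1 (-0.11) and Ece2 (-0.06), which are endothelin-converting peptidases, and Cdk5r2 (-0.15), an activator of Cdk5. Map1a (-0.14) and Map6 (-0.03), which bind microtubules, and Nr1h2 (-0.12), a nuclear receptor for sterols, made up the rest, with values as log2 fold changes.

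In blood, 42 of the 61 genes had counts in every library. None was called at adjusted p under 0.05 or unadjusted p under 0.005 in both sexes together, where 0% and 0.17% of all genes were. Fold changes were above 0 for 26 and below 0 for 16, and 49.5% of all genes were below 0. In the interaction with sex 1 of 42 passed 0.005, as did 0.902% of all genes. It was Map4, a microtubule-associated protein of many tissues, at 1.53 (SE 0.48, unadjusted p = 0.00499, adjusted p = 0.452 in edgeR). Its p was above 0.005 without any 1 of V1 (1.48), V21 (1.54), V22 (1.58), V3 (1.15), V5 (1.40), V6 (1.52) or V8 (1.48).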

How the data were processed

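RNA of 24 libraries was depleted of ribosomal RNA and sequenced by the authors, who used HISAT2 for alignment to mm10 and featureCounts 1.5.0-p3 for counting on the Gencode M11 annotation. The deposited table holds counts per gene without normalization, and the deposited gene table holds coordinates and lengths. Its mean RPKM columns, made by the authors from these counts, were not used. The 9 genes and all lists were chosen with earlier results of these data known. The tests were edgeR's quasi-likelihood F test (edgeR 4.0.16, R 4.3.3, two-sided, TMM) on genes that no fitted library held at 0, adjusted for RIN (for sex alone between tissues), with Benjamini-Hochberg adjustment over all genes tested. The cutoffs were an adjusted p of 0.05 and an unadjusted p of 0.005, the study's own, and the prior count was 0.5. Levels are TMM-scaled CPM within a tissue, and levels per kb are plain CPM. The study left out 1 blood library for its count distribution, taken here to be V2. Alternatives were limma voom 3.58.1, DESeq2 1.42.0, RLE, other filters, no RIN, a lane term, all blood libraries and each library left out. The named genes are the 9 members, the pathway genes past a cutoff in an nPM comparison or with the 2 smallest p of their list in cortex, and the genes most like each member, of which 1 for Mapt is not reported here. Blood relations to marker lists were added after seeing the data. Scripts were tested on simulated counts. Each sample is 1 pup, with 1 library per tissue.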

Additional observations from a re-analysis of the deposited data

Results flagged for a closer look

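Single libraries stood apart from the rest of their group (Dixon's test at the 95% level, which chance passes in about 1 of 20 groups). Of 36 groups of a gene, tissue and exposure examined, 11 held such a library. In control cortex this was V24 each time, with App at 961 CPM, Aplp1 at 512, Bace1 at 126 and Clu at 260, all the highest of their group, and Lrp1 at 351, the lowest. In nPM blood it was V5 each time, with App at 9.27 CPM, Aplp1 at 2.67, Mapt at 3.46, Bace1 at 0.749 and Apoe at 11.9. In nPM cortex V23 had the lowest Aplp2, 331 CPM. What sets these libraries apart was not tested.

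The nPM effect on Apoe in blood differed between the sexes by 2.02 on the log2 scale (edgeR's unadjusted p = 0.00107, adjusted p = 0.452), lower in females and higher in males.

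V2, the control female blood library kept out of the comparisons, held 8 of the 9 genes above every other control blood library on plain CPM. Its plain CPM was 94.9 for App, 1.37 for Aplp1, 123 for Aplp2, 1.94 for Mapt, 3.83 for Psen2, 21.5 for Bace1, 110.0 for Apoe and 180.7 for Lrp1. Clu was the exception. On TMM-scaled CPM V2 was above the others for 5 of the 9, and not for Clu, Aplp1 (0.210 against 0.537 in V22), Mapt (0.297 against 1.20 in V17) or Psen2 (0.587 against 0.850 in V22). Its astrocyte markers summed to 419 CPM and its neuronal markers to 12.6 CPM, the latter with 2 of 11 at 0, and their part in these levels was not tested.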

How the results depend on the processing

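In cortex of both sexes, the number of members called was 0 under every alternative run. The fitted values were close to 0, and their sign turned with small changes: Psen2 was at 0.0026 with RLE, 0.0022 with at least 1 count in any library and 0.0027 with DESeq2. With each library left out the values ran from -0.021 to 0.044 for App, -0.021 to 0.020 for Aplp1, -0.029 to 0.019 for Aplp2, -0.017 to 0.12 for Mapt, -0.064 to 0.045 for Psen2, -0.045 to 0.0086 for Bace1 and -0.027 to 0.066 for Apoe. With V2 kept, the blood values of both sexes were -0.41 for App, -0.082 for Apoe and -0.051 for Lrp1, and with each library left out App ran from -0.030 (without V5) to 1.21. Between the tissues, Clu was at 2.94 without TMM factors, an alternative chosen after seeing the data.

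Of the members, 0 were called at unadjusted p under 0.005 in blood of both sexes with V2 kept, and 0 to 1 with a library left out. With at least 1 count in any library, 1 member was called at adjusted p under 0.05 in the blood interaction and 1 in male blood, 4 in the sex difference in blood and 8 at unadjusted p under 0.005 between the tissues. That filter also gave 1 member at unadjusted p under 0.005 in female cortex, 1 in male blood and 4 in the sex difference in blood. In male blood DESeq2 called 1 and the fit without RIN 2 at 0.005, and in the sex difference in blood filterByExpr called 2 and the fit with V2 called 0. With a library left out, the members at 0.005 numbered 0 to 2 in the blood interaction, 0 to 2 in female blood, 0 to 1 in male blood, 0 to 2 in the sex difference in blood and 5 to 8 between the tissues, and at adjusted p under 0.05 they numbered 0 to 1 in female blood. Between the tissues, Aplp1, Mapt and Bace1 entered the fit once V8, which holds 0 counts of each, was left out.

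Over all genes, calls at adjusted p under 0.05 with at least 1 count in any library were 185 against 3 in cortex of both sexes, 28 against 0 in blood, 379 against 0 in the cortex interaction, 81 against 0 in the blood interaction, 1280 against 241 in female cortex, 155 against 0 in male cortex, 59 against 2 in female blood, 83 against 0 in male blood, 165 against 7 and 330 against 0 in the sex differences of cortex and blood, and 16131 against 8861 between the tissues. DESeq2 gave 22 in cortex of both sexes, 66 in the cortex interaction and 445 in female cortex. Without V11, 23 were left in female cortex, and without V18 there were 570 in female blood. At unadjusted p under 0.005, the number of genes passing moved by over 1.5 times with 1 library left out in every comparison but that of the tissues: from 128 to 68 (without V11) and 315 (V23) in cortex of both sexes, from 873 to 422 (V11) in female and from 69 to 42 (V13) and 214 (V14) in male cortex, from 281 to 159 (V23) in the cortex interaction, and from 108 to 42 (V10) and 427 (V23) in the cortex sex difference. In blood it moved from 17 to 11 (V1) and 37 (V21) in both sexes, from 82 to 54 (V1) and 762 (V18) in females, from 35 to 15 (V22) and 65 (V7) in males, from 90 to 42 (V3) and 272 (V18) in the interaction, and from 35 to 12 (V1) and 54 (V21) in the sex difference. The cause of these differences was not tested. Fits that would have held 1 control female without V4 or V17 were not run. No paired analysis was possible because the groups share no replicate numbers. In blood without V2, Aplp1, Mapt and Bace1 had 0 to 74 counts in a library and were not tested with the filter used.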
